A study of Bos taurus with 18 samples.

Results

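The glucose response of DNA methylation at ×2.5 EM was read from 6 of 18 RRBS libraries, 3 of High ×2.5 and 3 of Low ×2.5. EM (epigenetic modifiers) are folate, choline, vitamin B12 and methionine. High ×2.5 cells grew at 4.5 g/L glucose and Low ×2.5 cells at 1 g/L, and both media held EM at 2.5 times the basal amount. For methionine alone, the study's methods name a lower multiple than the sample labels do. All cells were EBTr, an embryonic bovine tracheal fibroblast line, grown in Eagle's Minimum Essential Medium with fetal bovine serum, penicillin-streptomycin and pyruvate. The replicates of a treatment were separate frozen tubes of cells, and nothing says that they came from separate cultures, so the p-values below measure only the spread between these tubes, which may be technical. The other 12 libraries were Low and High cells with EM at the basal amount (Control) or at ×5, and they entered the fit and gave reference levels. In RRBS, DNA is cut with a restriction enzyme and treated with bisulfite before sequencing, which tells methylated from unmethylated cytosines in CpG-rich fragments. All 31500 CpGs of the data set belong to the comparison.

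DNA methylation is a methyl group on the cytosine of a CpG. DNMT1 copies it to the new strand at each cell division, and DNMT3A and DNMT3B place it anew. The methyl group comes from S-adenosylmethionine, which is made from methionine. The folate cycle with vitamin B12, and choline by way of betaine, turn homocysteine back into methionine. Glucose feeds the same network through serine, which donates carbon to the folate cycle. Dense CpGs at active gene starts are mostly unmethylated in mammalian cells, while most other CpGs are highly methylated.

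The value of a CpG in a library was its M-value, methylated over unmethylated reads as a log2 ratio. Levels in percent were computed back from it. Reads per CpG are not in the values, so the depth behind each level is unknown. Calling used the study's threshold, an unadjusted p-value below 0.01, in a limma fit to all 18 libraries. It is termed methylated where High ×2.5 was higher and demethylated where it was lower. The span of a gene is that of its assigned CpGs in bosTau8. Genes were taken from the study's lists, which name the closest gene start for the CpGs they hold. A CpG between 2 listed CpGs of 1 gene took that gene. The study set no limit on the distance to the start, so an assigned CpG can lie far from its gene. CpGs assigned to C14H8orf33 ran from 7484 to 1363609 of chromosome 14, and those assigned to BOLA lay on 2 chromosomes. Below, the CpG of a gene is one assigned in this way. Exons and introns were not annotated here. The study picked the listed CpGs from these same samples, so assigned CpGs are not a neutral sample of all CpGs. Of all CpGs, 25162 (79.9%) were assigned, to 365 genes, and 20 of the calls were unassigned.

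High ×2.5 replicate 3 stood apart from the other 5 libraries, with High ×2.5 replicate 2 between it and the rest. Mean levels over all CpGs were 69.7%, 68.7% and 68.1% in High ×2.5 replicates 1, 2 and 3. In Low ×2.5, they were 69.1%, 69.8% and 69.3%. The groups overlapped, since High replicate 1 was close to the highest Low library, and the difference of the means was -0.544 percentage points (exact two-sided permutation p = 0.4). With 3 libraries against 3, no such test can go below 0.1. Without High replicate 3 the difference was -0.167 points. The M-values of High replicate 3 were also the most narrowly spread, with an SD of 1.65 against 1.71 to 1.80 in the other 5 libraries. Its share of CpGs with a level over 90% was 11.03%, against 13.3% to 16.5% in the others. Between groups, that share was 13.4% ± 2.38 (SD, n = 3) in High ×2.5 and 15.4% ± 1.23 in Low ×2.5 (exact permutation p = 0.3). The share under 10% was 1.27% ± 0.159 and 1.41% ± 0.134 (exact permutation p = 0.4). Correlations of M-values were 0.911 to 0.934 within High ×2.5, 0.939 to 0.957 within Low ×2.5 and 0.913 to 0.952 between them. The median SD of a CpG over the 3 libraries was 0.361 on the log2 scale in High ×2.5 and 0.298 in Low ×2.5.

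**Figure D1:**
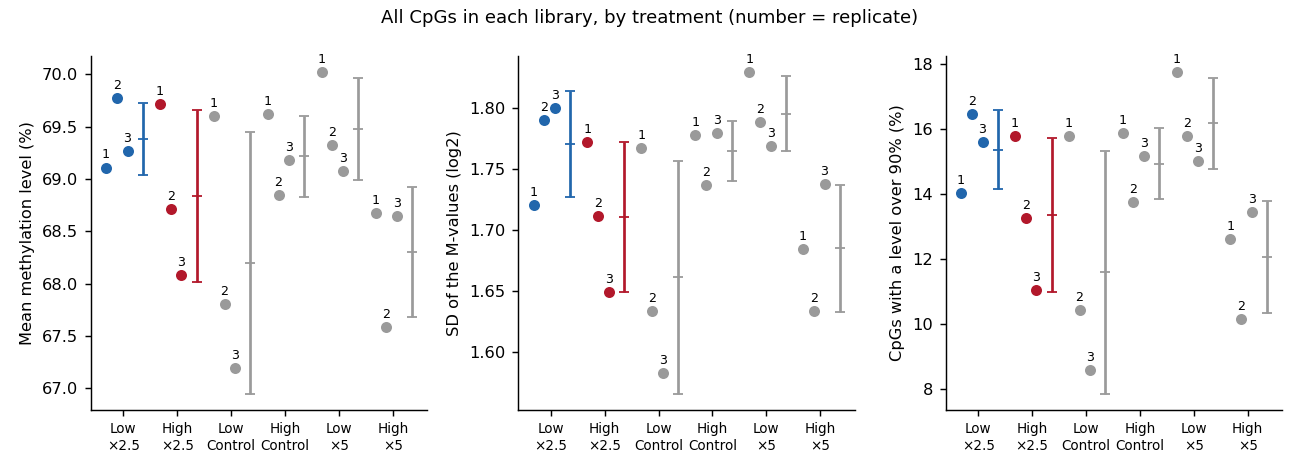
Mean methylation level (left), SD of the M-values on the log2 scale (middle) and share of CpGs with a level over 90% (right) of each library, by treatment. Points are libraries with their replicate number, bars are the mean ± SD of 3 libraries, and axes do not start at 0. High ×2.5 replicate 3 has a mean level of 68.1% and it and replicate 2 lie below all Low ×2.5 libraries in the 3 panels, while replicate 1, at 69.7%, lies among them.

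Between High ×2.5 and Low ×2.5, 317 of the 31500 CpGs (1.01%) were called. Of these, 97 (0.308%) were methylated and 220 (0.698%) were demethylated in High ×2.5. The threshold itself gives 315 calls over this many CpGs where nothing differs. None had a Benjamini-Hochberg adjusted p-value under 0.05 in limma, 1619 CpGs (5.14%) had an unadjusted p-value under 0.05, and the smallest adjusted p-value was 0.945. The excess of demethylated calls depended on scaling between libraries. Median centring of the libraries gave 152 methylated and 164 demethylated CpGs. Quantile normalization gave 134 and 158, and scaling the libraries to equal SD gave 138 and 153. Without High ×2.5 replicate 3, 232 CpGs (0.737%) were called, with 115 methylated and 117 demethylated. Without High ×2.5 replicate 1, the number rose to 520 (1.65%), with 143 methylated and 377 demethylated.

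Most differences were small. On the log2 scale the median difference was -0.04 and the middle 90% lay between -0.70 and 0.54, with a median SE of 0.33. A difference of at least 10 percentage points was seen at 1034 CpGs, 392 higher and 642 lower in High ×2.5, and one of at least 20 points at 10 CpGs. Methylated calls had a median log2 difference of 1.00 and demethylated calls one of -1.10, which correspond to medians of 12.5 and -10.2 percentage points. Looking at the libraries directly, all 3 High libraries lay above all 3 Low libraries at 1282 CpGs (4.07%) and below them at 2016 (6.40%). Where nothing differs, such a separation of 3 libraries from 3 has a probability of 0.1 over both directions. It was seen at 3298 of the 31500 CpGs, so the total was near that rate. Of the 317 calls, 302 were separated in this way. Median centring gave 1919 above and 1514 below, and equal SD gave 1796 and 1548, so the direction of this imbalance flipped with the scaling.

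The calls differed in their usual level. In the 12 libraries of the other treatments, methylated calls had a median level of 57.6%, demethylated calls one of 83.1% and all CpGs one of 75.4%. CpGs with a level of at most 11.1% in those libraries had 5 methylated and 0 demethylated calls among 444, all by limma at an unadjusted p-value under 0.01. From 33.3% to 66.7%, the 8763 CpGs had 36 methylated and 26 demethylated calls. From 80% to 88.9%, 8214 CpGs had 12 and 96, and above 88.9%, 4919 CpGs had 7 and 48. Mean differences ran the same way, from 0.32 on the log2 scale in the lowest class to -0.15 in the highest. This gradient was uneven over the 3 High libraries. In the highest class, the mean M-value of replicate 1 minus the Low mean was 0.02, that of replicate 2 was -0.15 and that of replicate 3 was -0.33. In the lowest class these were 0.00, 0.35 and 0.61. After quantile normalization the gradient shrank to 0.07 and -0.04 in the lowest and highest class. The narrower spread of M-values in High replicates 2 and 3 moved with the gradient, and its part in the calls was not tested beyond these scalings.

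**Figure D2:**
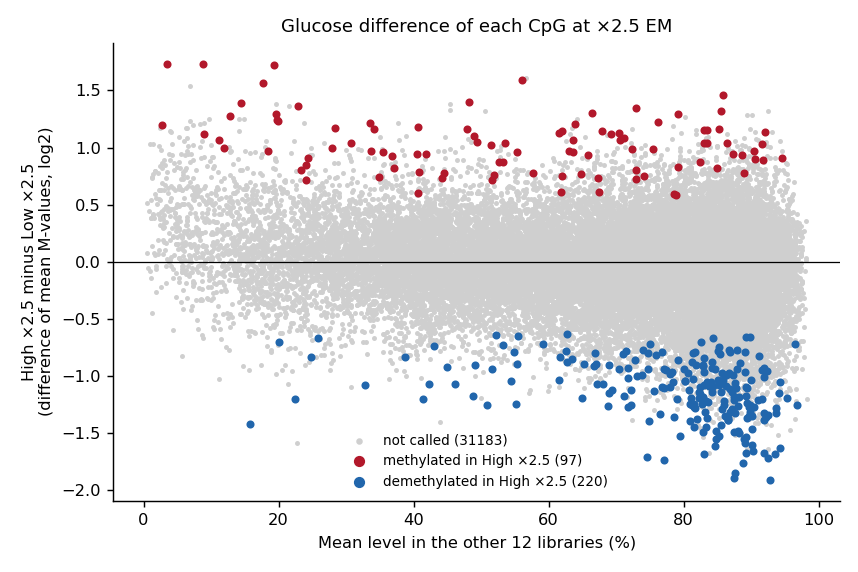
Difference between High ×2.5 and Low ×2.5 in mean M-value (y axis, log2) against the mean level in the other 12 libraries (x axis, percent), 1 point per CpG. The 97 methylated calls are spread over all levels, while most of the 220 demethylated calls lie above 80%.

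**Figure D3:**
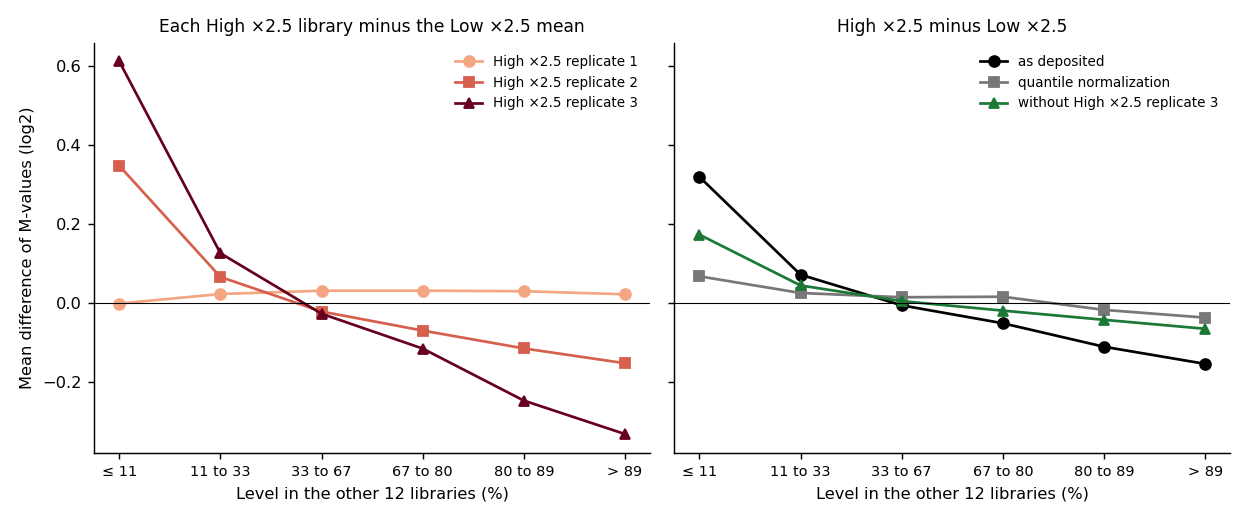
Mean difference of M-values (y axis, log2) in 6 classes of the level in the other 12 libraries (x axis, percent). On the left, each High ×2.5 library is set against the Low ×2.5 mean, and replicate 1 is flat while replicate 3 runs from 0.61 to -0.33. On the right, the difference of the group means is given as deposited, after quantile normalization and without High ×2.5 replicate 3.

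The 10 methylated CpGs with the smallest p-values among those whose treatments did not overlap are given first, led by one at PTP4A1. The lack of overlap at these 10 CpGs is thus set by the rule that named them. PTP4A1 encodes a tyrosine phosphatase linked to proliferation. At its CpG at position 39322 of chromosome 9, the level was 83.1%, 80.5% and 81.4% in High ×2.5 and 64.8%, 69.2% and 73.1% in Low ×2.5, or 0.99 in log2 (SE 0.21). A second PTP4A1 CpG 8 bp away, at 39314, had 50.3%, 58.6% and 61% against 37.0%, 49.6% and 46.9%. All High libraries exceeded all Low libraries at both CpGs. The naming rule set this at the first. The second was itself a call, and 95 of the 97 methylated calls did not overlap, so this is not independent support. The GADD45G product turns on a stress kinase of the MAPK cascade. Its CpG at 89372641 of chromosome 8 had 24.5%, 26.3% and 45.8% in High ×2.5 and 16%, 19.4% and 12.7% in Low ×2.5. Here High replicate 3 was far above the other High libraries, which still exceeded the Low libraries. ARFGAP3 switches off the small GTPase ARF1 at the Golgi. The same library was again the highest at its CpG at 114223883 of chromosome 5, where levels were 21.3%, 20.8% and 46.7% against 14.3%, 6.25% and 13.5%. Both CpGs were still called without that library, at 0.86 instead of 1.29 in log2 for GADD45G and at 1.15 instead of 1.72 for ARFGAP3, and neither was called in a fit to the 6 libraries alone.

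RNF122 and UBE3A encode ubiquitin ligases, which mark proteins for degradation. At 28723044 of chromosome 27 (RNF122), levels were 79.6%, 73.7% and 81.0% in High ×2.5 and 58.1%, 62.7% and 61.8% in Low ×2.5. At 1891641 of chromosome 21 (UBE3A), they were 40.6%, 45.2% and 41.7% against 35.3%, 25.6% and 23.9%. The treatments were apart at both, as the naming rule requires, by 17.2 and 14.2 percentage points between means. FUNDC1 is a receptor for mitophagy on the outer mitochondrial membrane. Its CpG on chromosome X (104706266) had 87.0%, 90.0% and 90.0% in High ×2.5 and 73.3%, 80.8% and 75.0% in Low ×2.5. Of these 10 CpGs, the one with the lowest level was assigned to C14H8orf33 (401617 of chromosome 14), with 5.15%, 5.36% and 5.88% against 2.38%, 1.56% and 1.32%. Its log2 difference was 1.74 (SE 0.39) although it spans only 3.71 percentage points, since the log2 scale stretches levels near 0. The remaining CpGs were assigned to GSG1 (92.3% ± 2.71 against 82.1% ± 0.463) and SLC16A7, or lay on chromosome 13 at 886583 without a gene (20.2% ± 1.20 against 11.3% ± 0.526).

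SLC16A7 encodes a carrier of lactate and pyruvate, and it was named in both directions. Its methylated CpG at 53755637 of chromosome 5 had 75.8%, 64.3% and 76.9% in High ×2.5 and 41.4%, 55.6% and 43.9% in Low ×2.5. This was one of 5 called CpGs that differed by at least 20 points between means. At 53755482, 155 bp away, the level was 89.7%, 82.4% and 85.7% in High ×2.5 and 96.1%, 95.5% and 96.0% in Low ×2.5, or -1.89 in log2 (SE 0.42). Both lie in a stretch of 32 CpGs over 267 bp, in which a further CpG at 53755470 was demethylated (48.9% ± 6.96 against 66.2% ± 3.84). Neither direction held over the stretch, whose mean M-value differed by -0.19 and was not called.

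The 10 demethylated CpGs with the smallest p-values, of those whose treatments did not overlap, had Low ×2.5 means of 82.3% to 95.9%. They were chosen to be higher in Low ×2.5. In the other treatments, their means ran from 71.7% (GNAI1, Low Control) to 91.1% (VGLL3, High Control). The smallest p-value of the whole comparison was at 98753884 of chromosome 4, assigned to LRGUK, a gene of sperm formation. Levels there were 83.3%, 78.0% and 74.3% in High ×2.5 and 89.8%, 91.5% and 88.7% in Low ×2.5, or -1.29 in log2 (SE 0.23). By limma its Benjamini-Hochberg adjusted p was 0.945, as for all 20 CpGs named in this way. SNTN encodes a protein of cilia. Its CpG at 37881792 of chromosome 22 had 76.8%, 73.0% and 79.3% against 90.9%, 90.2% and 90.3%, and the CpG 3 bp away at 37881795 was demethylated too (62.8% ± 5.23 against 76.2% ± 3.30). All Low libraries lay above all High libraries at both, within 1 point of each other at the first and spread more widely at the second. The naming rule set this lack of overlap at the first. The second was itself a call, and 207 of the 220 demethylated calls did not overlap, so it gives no independent support.

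NDUFAF4 is needed to assemble complex I of the respiratory chain. At 53587931 of chromosome 9, its CpG had 82.4%, 70.0% and 67.6% in High ×2.5 and 88.1%, 88.2% and 88.3% in Low ×2.5. Low libraries differed by less than 1 point there, while High libraries were spread widely below them. GNAI1 is the inhibitory G protein subunit that restrains cyclic AMP production. Levels at 41496002 of chromosome 4 were 70.8%, 55.6% and 69.0% against 79.2%, 80.3% and 87.5%, a difference of -17.2 percentage points. TTI2 belongs to a complex that stabilises kinases such as mTOR, and its CpG at 28504617 of chromosome 27 had 82.1%, 84.2% and 78.6% against 87.5%, 92.1% and 94.7%. VGLL3 is a cofactor of TEAD transcription factors, and its CpG at 34832123 of chromosome 1 had 83.3%, 80.4% and 75.0% against 94.4%, 87.5% and 92.0%. High libraries were below Low libraries at each of these CpGs, as the rule that named them requires. The others were assigned to TMEM183A (75.9% ± 2.83 against 87.9% ± 2.50), UBE3A at 2535362 of chromosome 21 (88.6% ± 0.792 against 95.6% ± 0.762) and LRRC71 (73.6% ± 1.904 against 87.8% ± 1.97).

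**Figure D4:**
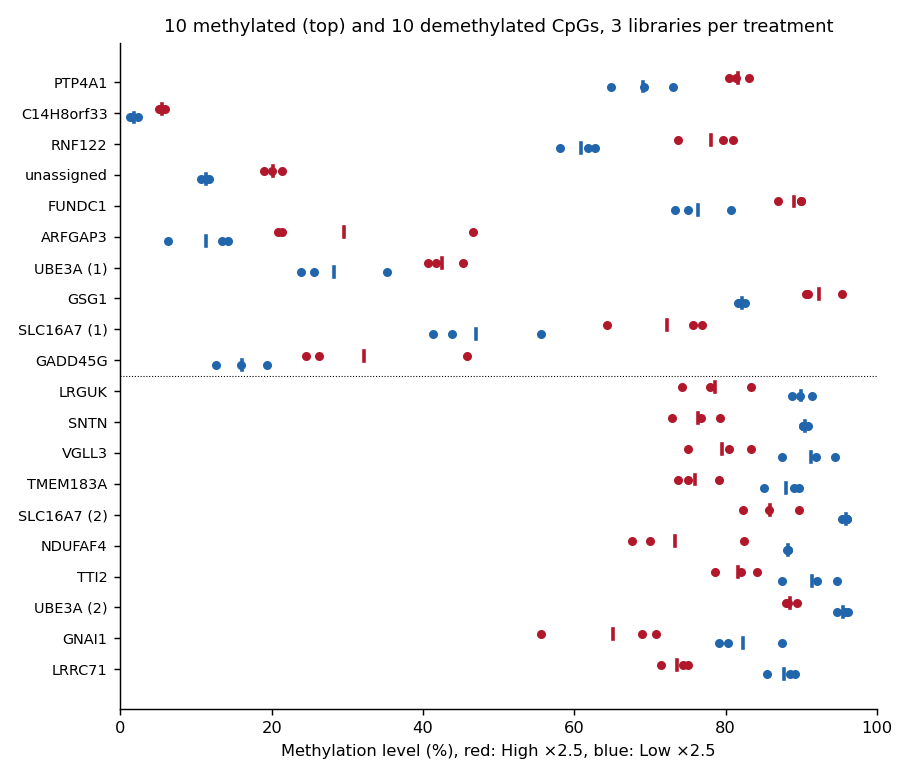
Methylation level (x axis, percent) of the 10 methylated and 10 demethylated CpGs with the smallest p-values, named by their gene. Points are libraries (red, High ×2.5 and blue, Low ×2.5) and short bars are means of 3. In every line the red and blue points are apart, which is part of the rule that named these CpGs.

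All 20 CpGs stayed called in the same direction when any 1 of the 6 libraries was left out and on the 3 other scales. Of the 317 calls, 32 did so in all 9 of these fits, 10 methylated and 22 demethylated, among them the 20 named here. The 20 were named for small p-values and lack of overlap in these same libraries. That they stayed called is therefore not independent support. Without High ×2.5 replicate 3, 101 of the 317 were still called in the same direction.

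Single CpGs rather than stretches made up most calls. Of the 317, 42 had another call within 100 bp, and at 33 of these all such neighbours had the same direction. LRRC71 had the longest run of one direction, 3 demethylated CpGs between 13934533 and 13934594 of chromosome 3. Differences of adjacent CpGs correlated weakly when less than 10 bp apart (Pearson r = 0.165 over 14382 pairs) and from 10 to 25 bp (0.174 over 8369 pairs). From 50 to 100 bp, r was -0.036 over 1325 pairs. These are descriptions across CpGs that share libraries and reads. The deviations of single libraries from their treatment means correlated as much at those distances (0.173, 0.179 and 0.013). Calls were not concentrated in dense stretches, since 1.10% of the CpGs with at most 1 close neighbour were called, and 0.941% of those in stretches of more than 20 CpGs.

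Averaged over stretches of at least 3 CpGs with gaps under 100 bp, 20 of 2663 clusters (0.751%) were called, 2 methylated and 18 demethylated. The smallest Benjamini-Hochberg adjusted p-value from limma was 0.941, so 0 clusters passed 0.05 after adjustment, and 123 did before it. This imbalance, too, changed with the scaling, to 14 methylated and 11 demethylated with median centring and to 10 and 15 with quantile normalization. Leaving out High ×2.5 replicate 1 gave 44 clusters and leaving out replicate 3 gave 13. NUDT12, an enzyme that hydrolyses NADH, had the smallest p-value. The mean level of its 5 CpGs (105871650 to 105871716 of chromosome 7) was 78.7%, 78.9% and 77.3% in High ×2.5 and 83.4%, 83.9% and 86.4% in Low ×2.5. All 5 were lower in High ×2.5, and the call held in all 6 fits without 1 library and on the 3 other scales. The 5 clusters with the smallest p-values were named from these same libraries. Neither a shared sign nor a call that held is therefore independent support. CPS1 catalyses the entry step of the urea cycle in mitochondria. A CPS1 cluster of 4 CpGs (100650060 to 100650121 of chromosome 2) was methylated, with 83.3%, 80.8% and 81.0% against 70.3%, 78.0% and 74.2%, and lost its call without High replicate 1 or without Low replicate 1. A cluster of 6 CpGs at DUSP11, an RNA phosphatase (10819448 to 10819516 of chromosome 11), had 71.2%, 71.9% and 74.8% against 76.5%, 76.2% and 76.2%. Its call was lost without High replicate 1 or Low replicate 2. The LRGUK cluster of 7 CpGs (98739205 to 98739480 of chromosome 4) had 48.7% ± 1.16 against 55.1% ± 0.565 and was called in all 6 fits without 1 library. BOLA, the symbol of bovine major histocompatibility genes, was given to a cluster of 17 CpGs (59496769 to 59497051 of chromosome 10) with 62.4% ± 1.85 against 68.1% ± 0.611, which lost its call without High replicate 2. The only other methylated cluster was assigned to MAPK8, the stress kinase JNK1, with 66.4% ± 1.33 against 62.3% ± 1.19 over 8 CpGs, and it was still called in 1 of the 6 fits without 1 library. This cluster was named after its values were seen.

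Genes with the most called CpGs mostly held many tested CpGs, so their counts are read against 1.01% over all CpGs and 1.18% over the CpGs with a gene. All 12 of these counts moved by over 1.5 times when 1 library was left out. ALG6, which adds a glucose to the sugar precursor of N-glycans, had 13 calls among 960 CpGs (82717414 to 82901168 of chromosome 3), 1 methylated and 12 demethylated. Its strongest CpG, at 82779178, had 81.8%, 82.6% and 85.7% in High ×2.5 and 92.3%, 96.0% and 95.5% in Low ×2.5. The mean over all 960 CpGs was 70.6%, 69.4% and 68.8% against 70.0%, 71.0% and 70.6%, and these overlapped (exact permutation p = 0.3). Leaving out 1 library gave 7 (High ×2.5 replicate 3) to 19 calls (High ×2.5 replicate 1), with more demethylated than methylated ones each time. Over all CpGs this was so each time too, from 115 and 117 without High replicate 3 to 143 methylated and 377 demethylated without High replicate 1. PAK1, a kinase that acts downstream of Rac and Cdc42, had 1 methylated and 8 demethylated CpGs among 743. At 19423398 of chromosome 29, its level was 94.5%, 95.4% and 94.3% against 98.0%, 96.9% and 98.1%, and the CpG 13 bp further, at 19423411, had 85.2% ± 2.78 against 92.3% ± 1.45. PAK1 had 3 calls without High replicate 3, 4 without Low replicate 1, 5 without Low replicate 2 and 11 without High replicate 1. Its split was 5 methylated and 6 demethylated with median centring, 3 and 5 with quantile normalization, and 3 and 4 with equal SD. TTI2 had 2 methylated and 7 demethylated CpGs among 511, and 4 calls without High replicate 3. The 3 libraries of High ×2.5 lay below those of Low ×2.5 in the mean over the 511 CpGs (68.6%, 68.3% and 66.8% against 68.8%, 69.3% and 68.9%, exact permutation p = 0.1, the smallest possible). TTI2 was named for its calls in these same libraries, and this was 1 of 12 such tests. The difference was -1.09 points at TTI2, beside -0.544 over all CpGs.

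TWIST1, a transcription factor of mesenchymal cells, had the highest share of calls among these genes, 2.49% of 321 CpGs over 53.7 kb of chromosome 4. Of its 8 calls, 3 were methylated and 5 demethylated, and without High ×2.5 replicate 3 they were 6 and 2. Without Low replicate 1 or Low replicate 2, 5 calls were left. At 27740084 the levels were 52.3%, 64.3% and 54.5% in High ×2.5 and 38.7%, 42.6% and 31.0% in Low ×2.5. At 27737299 they were 82.1%, 81.6% and 80.0% against 90.2%, 94.2% and 93.2%. So both directions occurred within 3 kb of each other. There was no overlap of the treatments at either CpG, as at 302 of all 317 calls. TLE4, a corepressor that acts on Wnt target genes, had 3 methylated and 5 demethylated CpGs among 688. It had 2 calls without Low replicate 1, 5 without High replicate 3 and 13 without Low replicate 2, and median centring turned the split to 7 and 4. Its largest difference was at 56795474 of chromosome 8, with 75.4%, 57.7% and 62.5% against 88.5%, 85.0% and 85.5%, a CpG that was not called without High replicate 3. GRIK1, a kainate receptor subunit, had 3 and 4 among 346, with 3 calls without High replicate 2 and 15 without High replicate 1. CPS1 had 3 and 3 among 314, BRINP1 had 1 and 5 among 415, LRRC71 had 1 and 4 among 222, and PPP2R2A, a regulatory subunit of the phosphatase PP2A, had 0 and 5 among 482. CPS1, LRRC71 and PPP2R2A had 2, 1 and 2 calls without High replicate 3, and CPS1, LRRC71 and BRINP1 had 1, 1 and 2 without Low replicate 1. LRRC71 had 3 without High replicate 2. C14H8orf33 had 6 methylated and 7 demethylated CpGs among 1074, and RNF122 7 and 3 among 734. Quantile normalization turned the split of C14H8orf33 to 9 and 5, of GRIK1 to 4 and 3, and of TWIST1 to 3 and 3. C14H8orf33 had 4 calls without High replicate 2 and 7 without Low replicate 3. Without High replicate 1, C14H8orf33 had 23 calls, BRINP1 had 11, CPS1 had 9, PPP2R2A had 8 and LRRC71 had 3. RNF122, the only one of the 12 genes with more methylated than demethylated calls, had 5 and 9 without High replicate 1, 4 and 6 without Low replicate 1, and 5 calls in all without Low replicate 3. In the mean over all its CpGs, the difference was -0.625 points (exact permutation p = 0.4).

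Gene lists of functions were described by their counts beside those over all CpGs, which were 0.308% methylated and 0.698% demethylated. The lists hold only CpGs with a gene. Of those, 297 of 25162 (1.18%) were called, 94 methylated and 203 demethylated. Of all 365 genes, 125 had a call. In energy metabolism and mitochondria, 12 of 21 genes had a call, with 11 methylated and 19 demethylated CpGs among 2071 (1.45%), and 18 calls (0.869%) without High ×2.5 replicate 3. Members of the list had up to 314 CpGs each, and a gene with more CpGs has more chances of a call. GBE1, the glycogen branching enzyme, had a methylated CpG at 29210124 of chromosome 1, with 46.2%, 31.0% and 36.4% in High ×2.5 and 21.3%, 23.5% and 13.4% in Low ×2.5. ACSS3, a mitochondrial acyl-CoA synthetase, was methylated at 10907735 of chromosome 5, with 12%, 11.1% and 18.5% against 6.90%, 3.23% and 4.08%. The treatments did not overlap at either, as at 302 of all 317 calls. BCKDHB, a subunit of the enzyme that breaks down branched-chain keto acids, had 2 demethylated CpGs 34 bp apart, with 89.5% ± 3.50 against 96.8% ± 1.46 at 20861052 of chromosome 9 and 82.5% ± 2.62 against 90.4% ± 1.14 at 20861018. ACO1, an aconitase, was demethylated at 2 CpGs, and so were the complex I subunit NDUFB7 and the mitochondrial carrier SLC25A14. HSD17B4, of peroxisomal fat oxidation, was demethylated at 1 of 7 CpGs. GHITM, of the inner mitochondrial membrane, had 2 methylated and 1 demethylated, NDUFAF4 had 2 and 2, and MRPS11, of the mitochondrial ribosome, had 1 and 1. The remaining genes of the list with a call were CPS1 and SLC16A7. The median difference of the list was -0.06 on the log2 scale, beside -0.04 over all CpGs.

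In MAPK, kinase and receptor signalling, 5 of 14 genes had a call, with 3 methylated and 12 demethylated CpGs among 1207 (1.24%), 9 of them at PAK1. This list had 5 calls without High replicate 3, 3 methylated and 2 demethylated, 9 without Low replicate 1 and 8 without Low replicate 2, and quantile normalization gave 5 methylated and 7 demethylated. MAP2K6, which activates p38, had 2 demethylated CpGs, at one of which (61936158 of chromosome 19) the levels were 82.1%, 77.8% and 60.6% against 88.4%, 88.7% and 84.6%. Replicate 3 was the lowest of the High libraries there by a wide margin. PIK3R4, a subunit of a phosphoinositide kinase, had 1 methylated and 1 demethylated CpG. GADD45G had its 1 methylated CpG, and MAPK8 had 1 demethylated CpG. Among GTPase regulators and G proteins, 5 of 15 genes had a call, with 6 methylated and 7 demethylated CpGs among 999 (1.30%). RGL1 and TAGAP had only methylated calls, GNAI1 had 1 methylated and 3 demethylated, and ARFGAP3 and DNAJC27 each had 1 and 2. TAGAP had 68.6%, 80.3% and 81.1% in High ×2.5 and 61.8%, 63.1% and 56.9% in Low ×2.5 at 97007560 of chromosome 9. Without High replicate 3, the list had 6 methylated and 2 demethylated CpGs, and quantile normalization gave 8 and 5, so the direction flipped under both.

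Wnt signalling had 5 methylated and 8 demethylated CpGs among 969 (1.34%), at SFRP1, ZNRF2 and TLE4, the last with 3 and 5 of them. Without High replicate 3 the list had 8 and 1. Without Low replicate 1 it had 6 calls (0.619%), and median centring gave 9 and 6. For chromatin and transcription factors, 5 of 17 genes had a call (4 methylated and 10 demethylated CpGs among 1001, 1.40%). TWIST1 alone held 3 of the methylated and 5 of the demethylated ones. Without High replicate 3 the list had 9 and 5, and without Low replicate 3 it had 9 calls in all. SET, a histone chaperone that also inhibits PP2A, had a demethylated CpG at 19025721 of chromosome 25 with 88.4%, 81.5% and 83.3% against 91.7%, 94.1% and 96.9%. WDR5, of histone H3K4 methyltransferase complexes, the remodeller CHD1L and IRF4 each had 1 demethylated CpG. Matrix and adhesion genes had 2 methylated and 3 demethylated CpGs among 802 (0.623%), and 11 calls (1.37%) without High replicate 2. Median centring gave 8 calls. The demethylated ones were at the adhesion molecule CADM1, at CD200 and at the integrin ITGB8. PLOD3, a collagen-modifying enzyme, and CD200 had the methylated ones. Genes known from immune cells, some of which (IL33, BOLA) fibroblasts express too, had 2 methylated and 4 demethylated CpGs among 764 (0.785%), at BOLA, CCR2, IL2, IL33 and XCL1, and 4 calls without High replicate 3. For ribosome and ribosomal RNA genes, the count was 3 of 621 (0.483%), 2 of them methylated at RN45S, and it rose to 18 (2.90%), 11 methylated and 7 demethylated, without High ×2.5 replicate 1. Without Low replicate 1 it was 6. None of the 13 genes of one-carbon metabolism and DNA methyltransferases, such as MTR, MAT2A and DNMT1, had an assigned CpG. Unassigned CpGs may lie near them, so these genes were not assessed. The 27 genes of the study's process lists for this contrast held 7 methylated and 26 demethylated CpGs among 3211 (1.03%), and 11 and 6 without High replicate 3. Those lists were chosen on these samples, so their count is not independent evidence. MSN, which links actin to the cell membrane, had 2 demethylated CpGs, with 92.0%, 89.0% and 82.4% against 95.8%, 95.9% and 96.4% at 100103683 of chromosome X. PUF60, a splicing factor, and ADRA1A, an adrenergic receptor, had 1 demethylated CpG each (86.1% ± 5.60 against 94.1% ± 2.28, and 71.7% ± 4.51 against 83.4% ± 2.12).

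Of the genes that the study discusses from RRBS, ADCYAP1, which encodes the cyclic AMP-raising neuropeptide PACAP, had no called CpG among 93. Its mean level was 70.2%, 68.8% and 68.9% in High ×2.5 and 69.0%, 70.2% and 70.4% in Low ×2.5, which overlapped (exact permutation p = 0.3). The study's first-listed ADCYAP1 CpG for this contrast, at 36389011 of chromosome 24, had 96.1%, 93.5% and 92.0% against 92.5%, 88.4% and 84.2%. The difference was 1.01 in log2 (SE 0.48), which was not called, and the treatments overlapped. ARRDC3, an adaptor in receptor endocytosis, had 1 methylated CpG among 127, at 93162246 of chromosome 7, where the level was low in all libraries (3.57%, 3.45% and 5.00% against 2.70%, 1.29% and 1.57%). SFRP1, a secreted Wnt antagonist, had 1 methylated and 2 demethylated CpGs among 130. At 35853033 of chromosome 27, levels were 52.6%, 52.6% and 40% in High ×2.5 and 67.7%, 67.8% and 63.3% in Low ×2.5. IL2, a T cell growth factor, had 1 demethylated CpG among 331 (71.9% ± 9.44 against 83.3% ± 2.07). PDGFA, a growth factor for mesenchymal cells, had no call at its 2 CpGs, and no CpG was assigned to RAC1. After Benjamini-Hochberg adjustment in limma, p was 0.945 for each of the calls at MAP2K6 (61936158), ARRDC3, SFRP1 (35853033) and IL2.

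The glucose difference at ×2.5 was set against that at the other EM levels, which used other libraries but the same estimate of spread. High Control vs. Low Control had 606 calls (1.92%), 435 methylated and 171 demethylated, and High ×5 vs. Low ×5 had 506 (1.61%), 96 and 410. The comparison at ×2.5 shared 18 calls with the first (5.68% of its own and 2.97% of the other's), 4 in the same direction, and 15 with the second (4.73% and 2.96%), 13 in the same direction. Over all CpGs, differences at ×2.5 correlated with those at Control at r = -0.101 and with those at ×5 at r = 0.131, as a description across CpGs. The spread of M-values moved with these signs. Its SD was 1.76 in High Control and 1.66 in Low Control, 1.71 and 1.77 at ×2.5, and 1.68 and 1.80 at ×5. In Low Control, replicates 2 and 3 had 1.63 and 1.58 against 1.77 in replicate 1, so the Control comparison also rests on uneven libraries. Above 88.9%, the mean difference was 0.28 at Control, -0.15 at ×2.5 and -0.30 at ×5. The part of this spread in the shared signs was not tested.

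Tested directly, the glucose difference at ×2.5 differed from that at Control at 583 CpGs (1.85%), 137 more positive and 446 more negative at ×2.5. It differed from that at ×5 at 262 CpGs (0.832%), 188 more positive and 74 more negative. With quantile normalization these splits were 210 and 243, and 153 and 118. By limma, 0 CpGs passed 0.05 after Benjamini-Hochberg adjustment in either test (smallest 0.423 and 0.475), and 2378 and 1393 passed it before. The LRGUK CpG at 98753884 had the smallest p-value of the first. It was lower in High than in Low at ×2.5 (78.5% ± 4.55 against 90.0% ± 1.38) and higher at Control (89.5% ± 2.28 against 84.0% ± 0.0745), so that the 2 log2 differences were -2.01 apart (SE 0.33, Benjamini-Hochberg adjusted p = 0.423 in limma). At ×5 the means were 82.2% ± 1.92 and 87.0% ± 1.36. For the second, it was an SFRP1 CpG at 35834463 of chromosome 27, which differed little at ×2.5 (83.1% ± 1.10 against 84.6% ± 1.64). At ×5 its level was 76.9% ± 2.71 in High and 92.8% ± 1.06 in Low, so that the 2 log2 differences were 1.80 apart (SE 0.30, Benjamini-Hochberg adjusted p = 0.475 in limma).

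Of the 10 methylated CpGs named above, 7 were also higher in High at Control and 5 at ×5, with 0 called at either level by limma at an unadjusted p-value under 0.01. At Control, log2 differences ran from -0.70 to 0.88. SLC16A7 at 53755637 had 1.59 at ×2.5 but 0.16 at Control and 0.10 at ×5. GADD45G had 1.29 at ×2.5, -0.55 at Control and 0.96 at ×5. Of the 10 demethylated CpGs, 3 were also lower in High at Control and 7 at ×5. LRRC71 was called again at ×5, with -1.37 at ×2.5 and -1.08 at ×5, and LRGUK was called at Control in the opposite direction. Since these CpGs were chosen for their difference at ×2.5, a smaller value at the other levels is not a finding about EM. None of the tests of a change between EM levels at these 20 CpGs had an adjusted p-value under 0.05.

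**Figure D5:**
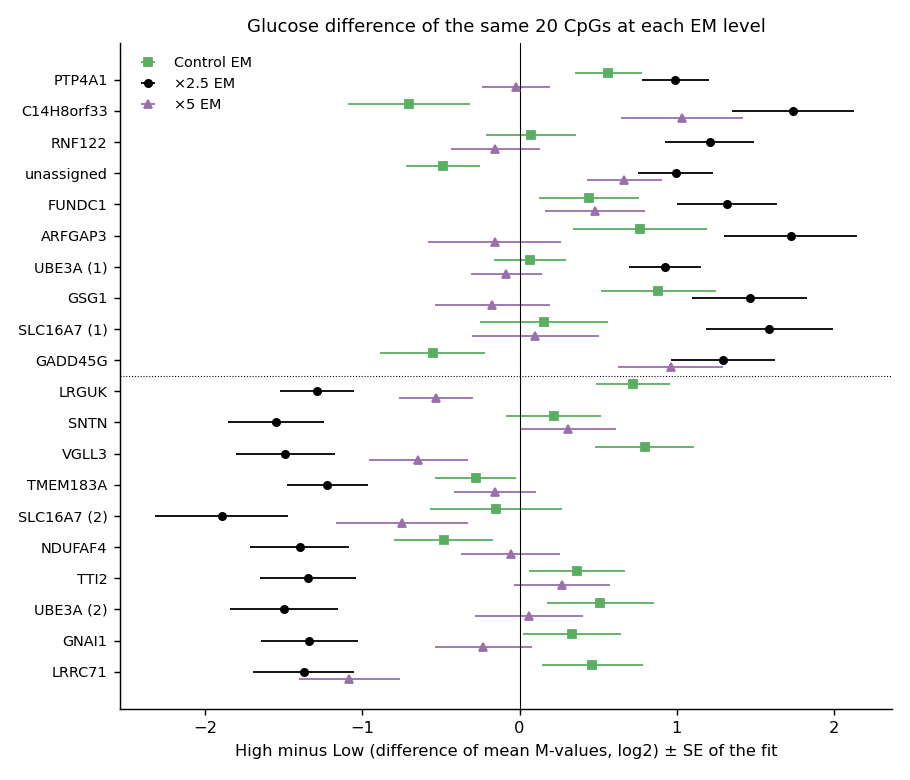
Difference of mean M-values between High and Low (x axis, log2, with the SE of the limma fit) at Control, ×2.5 and ×5 EM for the 20 CpGs named by their p-value at ×2.5. At ×2.5, the choice of CpGs sets the sizes. At the other levels the values lie on both sides of 0, from -0.70 to 0.88 for the methylated CpGs at Control, and the LRRC71 CpG at ×5, with -1.08, comes closest to its value at ×2.5.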

How the data were processed

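RRBS libraries of EBTr cells were compared, 3 per treatment and 18 in all, with treatments and replicate numbers taken from the sample labels. Per the submitters' notes and the study's methods, the authors trimmed reads with cutadapt, used Bismark 0.22.3 with bosTau8 for alignment and methylation calls, and applied a coverage filter to the CpGs. What the authors deposited are log2 values, namely 1 M-value (methylated over unmethylated reads) per CpG and library, and any offset added to the reads is not given in the sources used here. No table column was left unmapped. Depth is unknown, so no counting interval was computed, and an M-value from few reads is noisier than one from many. The study tested read counts, whereas here limma 3.58.1 (R 4.3.3; lmFit, contrasts.fit, eBayes) was fitted to the M-values, using every one of the 18 libraries, a mean for each treatment, two-sided p-values and Benjamini-Hochberg adjustment over all 31500 CpGs. Values were not scaled between libraries unless stated. Levels are the shares that M-values imply. Single values per library were compared by exact two-sided permutation tests. Python 3.11.15, numpy 2.4.6, pandas 2.3.3, scipy 1.17.1 and matplotlib 3.10.9 did the rest. The fitting code was tested on simulated data.

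Genes come from the study's supplementary lists, of which some are shortened, and a CpG lying between 2 consecutive CpGs listed under one gene took that gene. No sequence or exon annotation of bosTau8 was used here. Named were the 10 CpGs with the smallest p-value in each direction whose treatments did not overlap, and the 12 genes with the most calls. Also named were the 5 clusters with the smallest p-value, and the genes that the study discusses with its first-listed ADCYAP1 CpG. The genes of each list with a call were named too, as was the CpG with the smallest p-value of each test between EM levels. The comparison, the gene lists and the tests were chosen with earlier results of these data known. Scaling to equal SD, and other scalings of the count of CpGs whose treatments did not overlap, were added after the values were seen, as were the counts of the study's process lists and of all CpGs with a gene without 1 library.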

Additional observations from a re-analysis of the deposited data

How the results depend on the processing

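Against 317 calls, other fits and scalings at the same threshold gave 232 to 333. Leaving out 1 library gave 232 (High ×2.5 replicate 3) to 520 (High ×2.5 replicate 1). The called CpGs themselves changed more than these totals. Other fits and scalings shared 127 (40.1%, replicate block in 6 libraries) to 288 (90.9%, robust and trended eBayes) of the 317. A fit to the 6 libraries alone shared 160 (50.5%). Requiring a difference of at least 10 percentage points left 181 calls (66 methylated and 115 demethylated), an adjusted p-value under 0.05 left 0, an unadjusted p-value under 0.05 gave 1619, and clusters gave 20. Clusters called ranged from 13 to 44 when 1 library was left out. Tests between EM levels gave 436 to 765 CpGs (Control) and 198 to 312 (×5). Quantile normalization turned the difference in mean level from -0.544 to 0.00036 percentage points and that in the share of CpGs under 10% from -0.133 to 0.0106 points, both by construction. Without 1 library, these were -0.984 to -0.167 and -0.210 to -0.0476, and the share over 90% differed by -3.22 to -0.84. With the replicate number as a replicate block, 333 CpGs were called in 18 libraries and 232 in 6. The numbers did not pair the samples: deviations of same-numbered libraries correlated at -0.078, 0.006 and -0.035. Of 299 values of the 20 named CpGs under 15 alternatives, 291 kept their call, 8 lost it and 0 changed direction. These 20 CpGs were named for small p-values in the same libraries, so this tells little about the other calls. The ADCYAP1 CpG at 36389011, not called otherwise, passed 0.01 with the replicate block, in 18 libraries and in 6. Depth limits all of this, since reads per CpG are unknown and a CpG with few reads can differ by many points by counting alone. The cause of the changes without 1 library was not tested.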
